A study of Mus musculus with 4 samples.

Results

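The 10 genes described here encode proteins that build and orient the mitotic spindle, together with separase, the protease that releases sister chromatids. They are Tpx2, Hmmr, Dlgap5, Nusap1, Aspm, Tacc3, Ckap5, Ckap2, Ckap2l and Espl1. They were listed as spindle-associated genes with earlier results of these data known, so their counts are a description and not a test of the list. All 10 were found among the 32230 gene symbols of the deposited table, and all 10 were among the 14621 genes tested, those whose TPM averaged 1 or more over the libraries (TPM counts a gene's transcripts per 1000000 in a library). The cells were mouse embryonic fibroblasts named 4F2A, taken from male homozygous mid-gestation embryos, in which doxycycline switches on a transgene of Oct4, Sox2, Klf4 and Myc. Every library, controls included, came from cells given doxycycline at 2 µg/mL for 48 h, in medium with LIF and serum replacement. The DMSO group received the vehicle and the CX-5461 group the RNA polymerase I inhibitor CX-5461, each for 1 h on day 0, and RNA was taken on day 2. Each group had 2 libraries, numbered 2 and 3. The labels do not say whether these were separate cultures or which embryos they came from, so p-values reflect the spread between libraries, and that spread may be technical.

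The spindle is assembled from microtubules that are nucleated at centrosomes, around chromosomes and along existing microtubules. Around chromosomes, the GTPase Ran frees assembly factors such as TPX2, HURP (Dlgap5) and NuSAP from importins, so that they can nucleate, bundle and stabilise microtubules there. TACC3, ch-TOG (Ckap5) and clathrin cross-link the fibres that end at kinetochores, and ASPM focuses the poles. Separase (Espl1) is held by securin until the anaphase-promoting complex is switched on, and then cleaves cohesin. Most of these messages are known to peak in G2 and mitosis and to be low in cells that do not divide, whereas ch-TOG also serves microtubules outside mitosis.

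All 10 genes were lower after CX-5461, but by very different amounts. Their summed level was 433 TPM in each DMSO library, and 111 and 117 TPM in the CX-5461 libraries. Tpx2, Hmmr, Dlgap5, Nusap1, Aspm, Tacc3, Ckap2l and Espl1 together fell from 292 TPM in both DMSO libraries to 18.7 and 17.9 TPM, whereas Ckap2 and Ckap5 stood at 63.4% and 73.8% of their DMSO means. In limma's test on log2(TPM + 1), where differences are CX-5461 minus DMSO, 10 of 10 passed an adjusted p under 0.05 as lower and 0 as higher, where 8.21% of all tested genes were lower and 11.6% higher. At an unadjusted p under 0.05, and with limma's voom on recovered reads, the counts were again 10 and 0. In 10 of 10 both CX-5461 libraries lay below both DMSO libraries, as they did in 26.3% of all tested genes. For 8 of the 10 the fall passed and was at least 4-fold on the log2(TPM + 1) scale, a size reached by 1.07% of tested genes. Aspm, Espl1, Nusap1 and Dlgap5 averaged 0.372 to 0.743 TPM with CX-5461. They thus entered the test only through their level in the DMSO libraries, and their part in these counts is a description. The median log2 difference was -3.43 over the 10 genes and 0.07 over all genes tested. In bulk RNA, fewer cells in mitosis and less of a message in each such cell cannot be told apart.

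**Figure D1:**
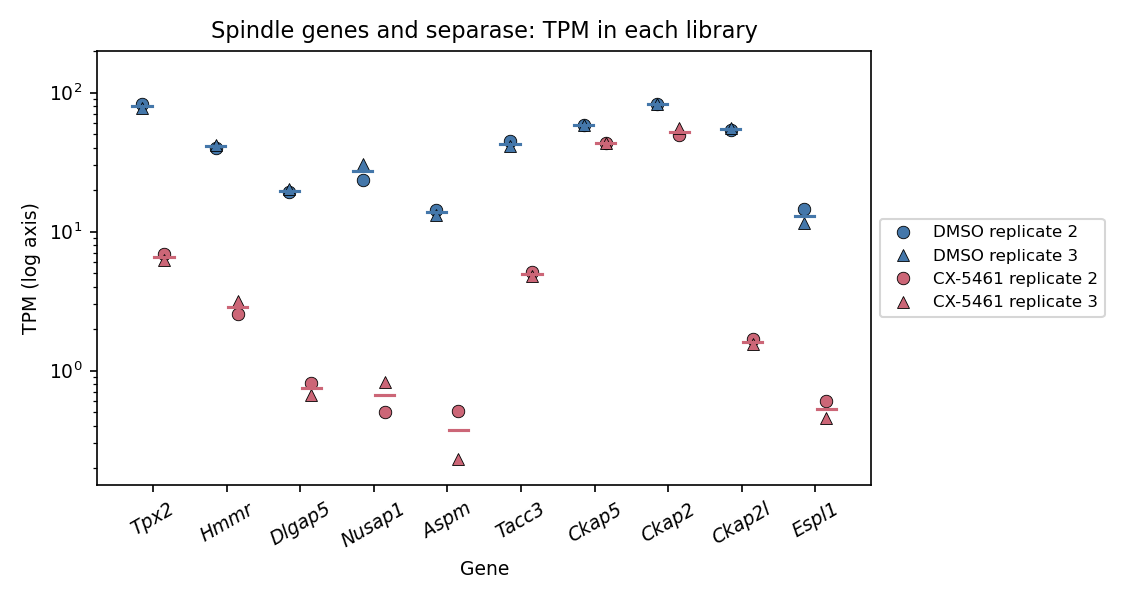
TPM (log axis) of each of the 10 genes in the 2 DMSO and 2 CX-5461 libraries; circles are replicate 2, triangles replicate 3, and bars the group means. In all 10 genes both CX-5461 points lie below both DMSO points, and the gap is narrow only for Ckap5 and Ckap2.

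Promoters of genes that peak in G2 and mitosis often hold a CHR, the element bound by the LIN54 subunit of the DREAM and MYB-MuvB complexes, next to CCAAT boxes bound by NF-Y. RefSeq windows (GRCm38.p6) from 250 bases before to 50 after the start were at hand for 8 of the 10 genes, all but Tpx2 and Dlgap5. Both strands were searched for the CHR as TTTGAA or TTCGAA, for the NF-Y box as CCAAT, and for an E2F-like site as TTCCCGC, as TTCGCGC, as TTGCCGC and as TTGGCGC, none of which overlapped in these windows. A CHR and an NF-Y box occurred together in 6 of the 8 windows and in 7.52% of all 32851 windows. Taken singly, a CHR was in 6 of the 8 windows and 19.2% of all windows. An NF-Y box was in 6 of the 8 and 37.4% of all, and an E2F-like site in 2 of the 8 and 9.57% of all. The 5 stretches from -130 to 20 around the start are shown because they set the paralogs Ckap2l and Ckap2, separase, and the genes with the smallest fall and with no match beside each other, with matches to a CHR or an NF-Y box in capitals, read on the gene's own strand.
Ckap2l: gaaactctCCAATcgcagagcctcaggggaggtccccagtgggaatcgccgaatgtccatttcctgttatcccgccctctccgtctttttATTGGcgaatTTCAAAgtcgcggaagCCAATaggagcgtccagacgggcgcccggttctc
Ckap2: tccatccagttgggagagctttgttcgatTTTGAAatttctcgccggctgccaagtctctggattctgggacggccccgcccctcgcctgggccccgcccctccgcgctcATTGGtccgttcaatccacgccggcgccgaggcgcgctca
Espl1: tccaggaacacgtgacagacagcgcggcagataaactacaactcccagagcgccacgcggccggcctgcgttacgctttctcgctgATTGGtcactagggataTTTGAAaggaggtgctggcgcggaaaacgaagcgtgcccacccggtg
Ckap5: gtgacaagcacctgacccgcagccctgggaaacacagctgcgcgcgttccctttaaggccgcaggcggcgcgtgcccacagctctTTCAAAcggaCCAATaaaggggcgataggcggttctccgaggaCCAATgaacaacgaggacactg
Nusap1: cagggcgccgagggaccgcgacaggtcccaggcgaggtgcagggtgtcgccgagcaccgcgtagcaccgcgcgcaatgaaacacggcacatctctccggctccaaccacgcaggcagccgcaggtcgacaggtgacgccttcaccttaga
These stretches lie at chr2:129297193-129297342 (minus strand), chr8:22185800-22185949 (minus), chr15:102296163-102296312 (plus), chr2:91526632-91526781 (plus) and chr2:119618168-119618317 (plus). In Ckap2l a CHR on the opposite strand stood at -30 to -25, between NF-Y boxes at -40 to -36 and -14 to -10. In Espl1 an NF-Y box at -44 to -40 was followed by a CHR at -27 to -22. Ckap5, which fell least, also held a CHR (-45 to -40) beside an NF-Y box (-35 to -31), and Ckap2 held a CHR farther out, at -101 to -96. Hmmr had 5 NF-Y boxes, a CHR at 9 to 14 and an E2F-like site at -216 to -210. Aspm had 3 NF-Y boxes and a CHR at 7 to 12. Nusap1 had no match to any of these motifs in its window, and Tacc3 had only an E2F-like site. Each gene had 1 window, whereas 4 transcripts of Nusap1 and 8 of Tacc3 are annotated, so any other starts were not searched. A match is a string of letters and not a measured binding site.

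**Figure D2:**
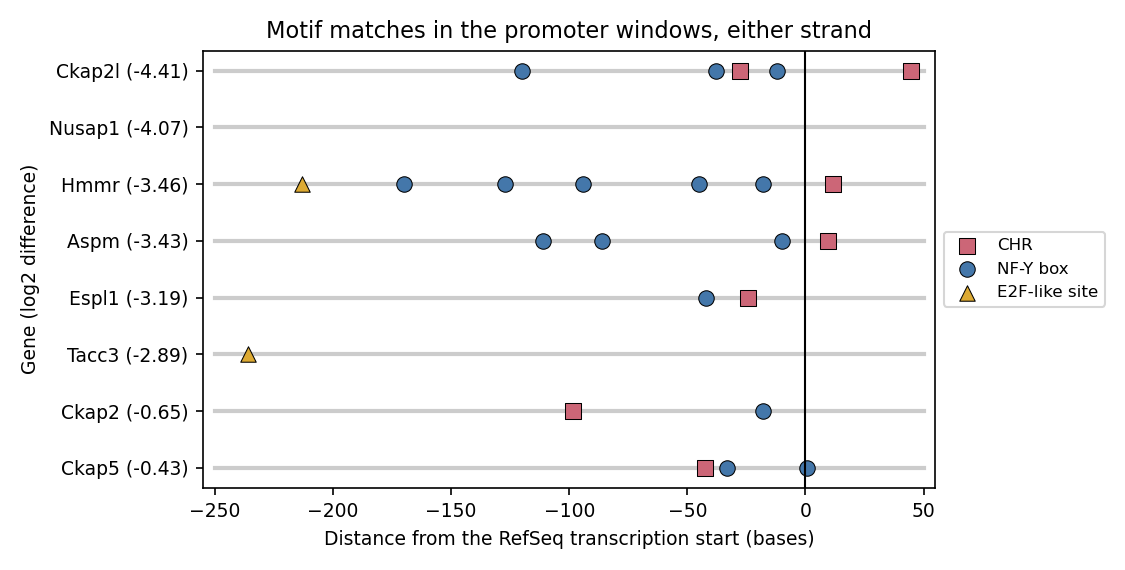
Matches to the CHR, the NF-Y box and the E2F-like site by distance from the RefSeq start (bases), on either strand, in the 8 genes with a promoter window, ordered from the largest log2 difference (in brackets) at the top. Ckap5 and Ckap2 at the bottom hold both a CHR and an NF-Y box, and Nusap1 near the top holds no match in the window searched.

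Tpx2, Hmmr, Dlgap5 and Nusap1 act in assembly around chromosomes and along the fibres. Tpx2 (chromosome 2, 152847964 to 152895321, mm10), which nucleates microtubules and activates the kinase Aurora A, was at 82.5 and 77.2 TPM in the DMSO libraries and at 6.92 and 6.19 TPM in the CX-5461 libraries. The groups lay far apart, 12.2-fold in their means (log2 difference -3.42 ± 0.10 SE, adjusted p = 0.000177), and the CX-5461 values still rested on 332 and 292 reads. Aurka, which encodes Aurora A, fell with it, from 60.4 and 59.0 to 2.85 and 5.33 TPM (log2 difference -3.62 ± 0.24 SE, adjusted p = 0.00130). The log2 ratio of Tpx2 to Aurka was 0.45 and 0.39 with DMSO and 1.28 and 0.22 with CX-5461, so the groups overlapped. Hmmr (chromosome 11, 40701395 to 40733422), whose product RHAMM ties TPX2 to the spindle poles, had 40.0 and 42.2 TPM with DMSO and 2.55 and 3.15 TPM with CX-5461. It was 14.4-fold lower (log2 difference -3.46 ± 0.13 SE, adjusted p = 0.000262). Relative to Tpx2 it did not separate the groups, at log2 ratios of -1.04 and -0.87 with DMSO and -1.44 and -0.98 with CX-5461.

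Dlgap5 and Nusap1, whose products stabilise and bundle microtubules next to chromosomes, fell to below 1 TPM. Dlgap5 (chromosome 14, 47387779 to 47418407) was at 19.1 and 20.2 TPM with DMSO and at 0.816 and 0.671 TPM with CX-5461, 26.4-fold lower (log2 difference -3.57 ± 0.15 SE, adjusted p = 0.000312). HURP and the kinesin Kif18a both act on kinetochore fibres, and Kif18a fell from 4.46 and 3.79 to 0.753 and 0.716 TPM (log2 difference -1.56 ± 0.21 SE, adjusted p = 0.00676). The log2 ratio of Dlgap5 to Kif18a was 2.10 and 2.41 with DMSO and 0.12 and -0.10 with CX-5461, with no overlap. Both genes were below 1 TPM with CX-5461, so the ratios there rest on low values. With a pseudocount of 0.1 TPM the log2 differences were -4.55 for Dlgap5 and -2.34 for Kif18a. Kif18a no longer passed without CX-5461 replicate 2 (adjusted p = 0.0520) or replicate 3 (0.0606). Nusap1 (chromosome 2, 119618298 to 119651244) was at 23.6 and 30.6 TPM with DMSO, the widest gap between control libraries among the 10 genes in TPM terms. With CX-5461 it stood at 0.504 and 0.831 TPM, from 21 and 34 reads, which made it 40.6-fold lower (log2 difference -4.07 ± 0.20 SE, adjusted p = 0.000395). Oip5, a centromere gene, overlaps Nusap1 on the opposite strand and fell too, from 7.36 and 8.24 to 0.822 and 0.335 TPM, and whether counting used strand is not given in the sources used here.

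Aspm (chromosome 1, 139454772 to 139494091), which focuses spindle poles and orients divisions in the growing brain, was at 14.2 and 13.3 TPM with DMSO. With CX-5461 it stood at 0.513 and 0.231 TPM. Those values came from 61 and 27 reads, against 1696 and 1776 with DMSO. The mean was 37.0-fold lower (log2 difference -3.43 ± 0.19 SE, adjusted p = 0.000537). The CX-5461 libraries differed from each other more in Aspm, in ratio, than in any other of the 10 genes, but both lay far below the controls.

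The TACC3 and ch-TOG genes of the kinetochore fibre cross-linker were lower by very different amounts. Tacc3 (chromosome 5, 33658128 to 33678995), which recruits ch-TOG and clathrin to the spindle once Aurora A has phosphorylated it, went from 44.6 and 41.3 TPM with DMSO to 5.10 and 4.79 TPM with CX-5461. It was 8.69-fold lower (log2 difference -2.89 ± 0.11 SE, adjusted p = 0.000262). Tmem129, which overlaps Tacc3 on the opposite strand, stood at 41.6 and 42.5 TPM with DMSO and 44.5 and 44.3 TPM with CX-5461 (adjusted p = 0.555). Ckap5 (chromosome 2, 91526762 to 91620664), the microtubule polymerase ch-TOG, was at 58.5 and 58.8 TPM with DMSO and at 43.0 and 43.6 TPM with CX-5461. That gap was small but wider than the spread within either group, 1.35-fold (log2 difference -0.43 ± 0.08 SE, 95% interval -0.63 to -0.22, adjusted p = 0.0203). Ckap5 did not pass without CX-5461 replicate 2 (adjusted p = 0.157), CX-5461 replicate 3 (0.167) or DMSO replicate 3 (0.0512), nor without limma's trend and robust options (0.0534). The log2 ratio of Tacc3 to Ckap5 was -0.39 and -0.51 with DMSO and -3.08 and -3.19 with CX-5461. The other TACC genes did not pass. Tacc1 stood at 19.6 and 17.8 against 16.4 and 17.2 TPM (log2 difference -0.15, adjusted p = 0.387), and Tacc2 at 33.2 and 34.1 against 37.1 and 36.4 TPM (0.12, adjusted p = 0.363).

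Ckap2 and Ckap2l are paralogs whose products bind spindle microtubules and are degraded as cells leave mitosis, yet they parted widely. Ckap2l (chromosome 2, 129268210 to 129297212) was at 53.4 and 55.3 TPM with DMSO and at 1.68 and 1.55 TPM with CX-5461. It was 33.7-fold lower, with a log2 difference of -4.41 ± 0.12 SE (adjusted p = 0.000163). Ckap2 (chromosome 8, 22168160 to 22185819), which is also described as a target of p53, was at 82.8 and 82.4 TPM with DMSO and at 49.3 and 55.4 TPM with CX-5461. The groups did not overlap, at 1.58-fold (log2 difference -0.65 ± 0.09 SE, 95% interval -0.88 to -0.42, adjusted p = 0.00851). Without CX-5461 replicate 2 or replicate 3 it did not pass (adjusted p = 0.0933 and 0.0662). The log2 ratio of Ckap2l to Ckap2 was -0.63 and -0.57 with DMSO and -4.88 and -5.16 with CX-5461, a shift of -4.42, wider than that of any other of the 6 ratios computed. With 2 libraries a group, an exact two-sided permutation test of such a ratio cannot go below p = 0.333, so the ratios are given as values.

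Separase and its inhibitor securin were both lower, separase by the larger ratio. Espl1 (chromosome 15, 102296266 to 102324357) was at 14.5 and 11.5 TPM with DMSO and at 0.601 and 0.454 TPM with CX-5461, from 54 and 40 reads. It was 24.6-fold lower (log2 difference -3.19 ± 0.19 SE, adjusted p = 0.000689). Pttg1, the gene of securin, was at 18.5 and 15.6 TPM with DMSO and at 7.26 and 7.04 TPM with CX-5461 (log2 difference -1.14 ± 0.14 SE, adjusted p = 0.00462), and did not pass without CX-5461 replicate 3 (0.0570). The log2 ratio of Espl1 to Pttg1 was -0.36 and -0.43 with DMSO and -3.59 and -3.96 with CX-5461, with no overlap.

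**Figure D3:**
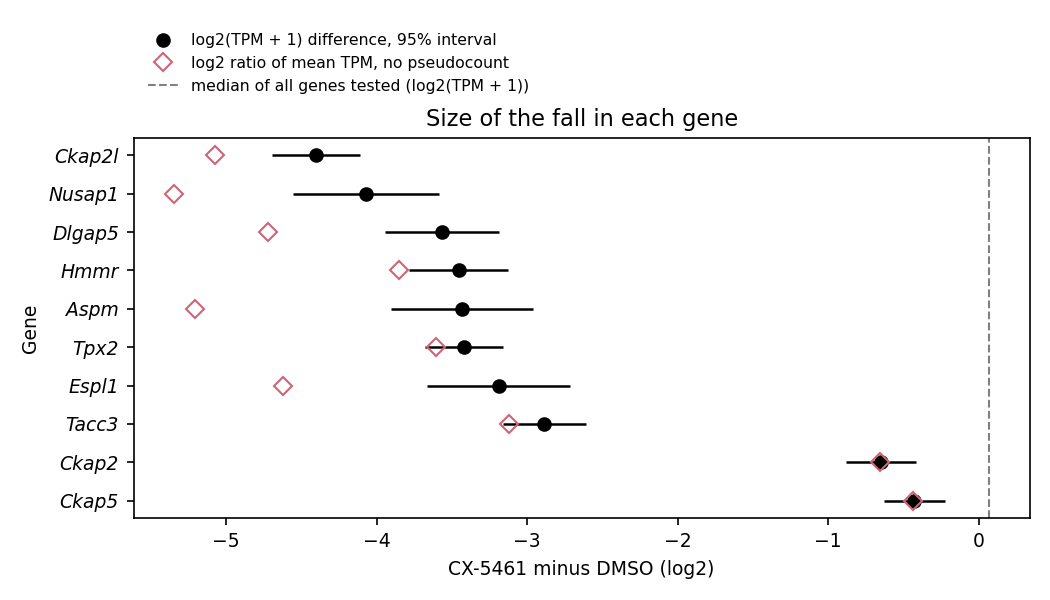
CX-5461 minus DMSO for each of the 10 genes: filled points are log2(TPM + 1) differences with 95% intervals, open diamonds the log2 ratio of mean TPM with no pseudocount, and the dashed line the median of all genes tested (0.07). The scales part for genes under 1 TPM with CX-5461, as for Aspm at -3.43 and -5.21, and meet for Ckap2 and Ckap5.

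The order of the falls depended on the scale. By the ratio of mean TPM the order was Nusap1, Aspm, Ckap2l, Dlgap5, Espl1, Hmmr, Tpx2, Tacc3, Ckap2 and Ckap5. On the log2(TPM + 1) scale Ckap2l came first and Aspm the fifth, because the pseudocount of 1 TPM narrows the difference of genes that end below 1 TPM. Taking the lowest and highest fold that any DMSO and CX-5461 library gave, Nusap1 (28.4 to 60.7), Aspm (25.8 to 61.6), Ckap2l (31.8 to 35.7), Dlgap5 (23.4 to 30.1) and Espl1 (19.1 to 31.9) could not be ordered, except that Ckap2l lay above Dlgap5. Neither could Hmmr (12.7 to 16.6) and Tpx2 (11.2 to 13.3), which both lay below those 5. Tacc3 (8.10 to 9.31), Ckap2 (1.49 to 1.68) and Ckap5 (1.34 to 1.37) each stood apart from its neighbours in these ranges. The ranges are extremes over 2 libraries a group and not intervals of uncertainty, so an order read from them is a description. The intervals given above for the log2 differences overlapped for Ckap2 (-0.88 to -0.42) and Ckap5 (-0.63 to -0.22). A difference in fall between Ckap2 and Ckap5 was therefore not shown. TPM is per gene length, so levels can be compared between genes, and the make-up of the group changed. Ckap2 and Ckap5 held 32.6% of the summed TPM in each DMSO library, and 83.2% and 84.7% in the CX-5461 libraries. Tpx2, level with Ckap2 in the controls (19.0% and 17.8% against 19.1% and 19.0% of the sum), held 6.23% and 5.30% with CX-5461.

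**Figure D4:**
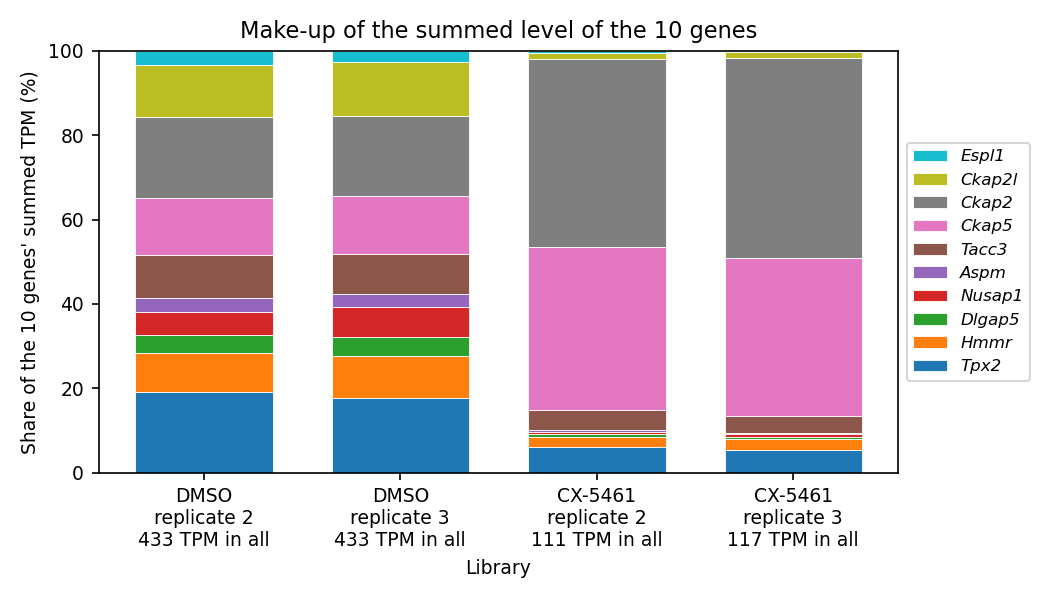
Share (%) of the 10 genes' summed TPM held by each gene in each library, with the sum under each bar. Ckap2 and Ckap5 fill 32.6% of both DMSO bars, and 83.2% and 84.7% of the CX-5461 bars.

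Over the 4 libraries, the 5 other genes whose centred log2(TPM + 1) profile lay nearest to the 10 genes' median profile were Cenpe, Knl1, Spc24, Clspn and Ccna2, at Euclidean distances of 0.099 to 0.18. The first 3 encode kinetochore proteins, Clspn a replication checkpoint adaptor and Ccna2 cyclin A2. Cenpe, the nearest, was at 31.4 and 31.0 TPM with DMSO and at 2.11 and 1.82 TPM with CX-5461 (log2 difference -3.44). With 4 libraries in 2 groups, this distance measures mainly how alike the group differences are in size.

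Partners of these proteins on the spindle were mostly lower as well. Of 44 such genes tested, 27 (61.4%) were lower and 4 higher, with a median log2 difference of -1.56. Over all tested genes 8.21% were lower and 11.6% higher, so the share of higher partners was not above that of all genes. Plk1, the Polo kinase that acts at spindle poles and kinetochores, had the lowest log2 difference of the 14621 genes tested (-5.33 ± 0.14 SE, adjusted p = 0.000163), from 103 and 102 TPM with DMSO to 1.86 and 1.31 TPM with CX-5461. Also lower were Kif2c, a microtubule depolymerase, from 25.8 and 26.9 to 0.692 and 0.591 TPM, and Prc1, which bundles the central spindle, from 35.2 and 34.2 to 1.94 and 2.07 TPM. Kif20a, a kinesin of cytokinesis, went from 74.0 and 75.1 to 7.57 and 7.82 TPM and Kif23, another kinesin of the midzone, from 18.0 and 19.4 to 0.456 and 0.370 TPM. The higher genes were Mapre3 and Mapre1, end-binding proteins that track growing microtubule tips, and Gtse1 and Psrc1, regulators of spindle microtubules that are also described as p53-responsive. Mapre3 rose from 30.7 and 33.0 to 72.7 and 73.3 TPM (log2 difference 1.17, adjusted p = 0.00126) and Mapre1 from 119 and 109 to 141 and 152 TPM (0.37, adjusted p = 0.0428). Mapre1 did not pass without DMSO replicate 3 (adjusted p = 0.0893), CX-5461 replicate 2 (0.179) or CX-5461 replicate 3 (0.304). Gtse1 (0.54) and Psrc1 (0.62) did not pass without CX-5461 replicate 2 (adjusted p = 0.103 and 0.0809) or without CX-5461 replicate 3 (0.142 and 0.113).

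The gamma-tubulin ring nucleates new microtubules, at centrosomes and, where augmin recruits it, along existing microtubules. Of 18 such genes, 5 (27.8%) were lower and 0 higher in limma's test, where 8.21% of all tested genes were lower. The counts were 6 and 1 at an unadjusted p under 0.05, and 7 and 0 with voom, and the median was -0.15. The 5 lower genes in limma's test were the augmin subunits Haus4 (-1.20), Haus6 (-0.96), Haus5 (-0.89) and Haus3 (-0.64) and the gamma-tubulin gene Tubg1 (-0.60). That count was 4 without DMSO replicate 2, 2 without DMSO replicate 3, 1 without CX-5461 replicate 2 and 0 without CX-5461 replicate 3. Of 3 tested paralogs of Tacc3 and Dlgap5, 0 passed with limma, and the count was also 0 at an unadjusted p under 0.05 and with voom. Of 25 regulators and substrates of separase, 15 (60%) were lower and 0 higher with limma, where 8.21% of all tested genes were lower. The counts were 18 and 0 at an unadjusted p under 0.05, and 19 and 0 with voom, and the median was -0.49. Cdc20, which activates the anaphase-promoting complex, fell from 155 and 132 to 8.87 and 11.0 TPM, and Bub1b, a spindle checkpoint protein that restrains it, from 40.7 and 37.3 to 2.58 and 1.97 TPM. Sgo1, which shields centromeric cohesin, fell from 11.5 and 11.6 to 0.869 and 0.625 TPM. How these lists differ from each other was not tested.

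**Figure D5:**
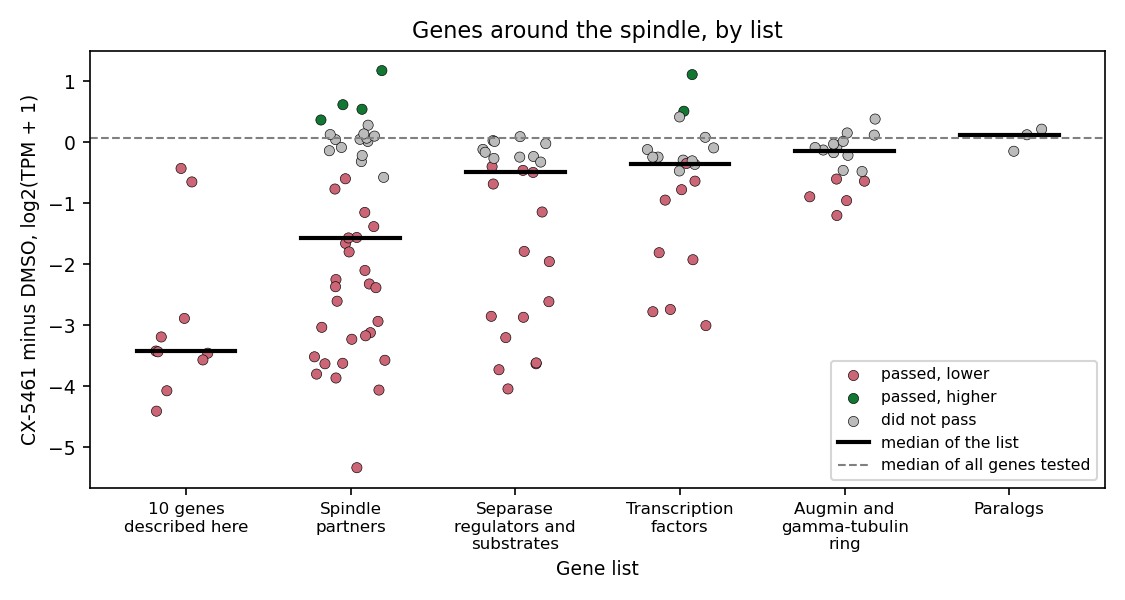
CX-5461 minus DMSO (log2(TPM + 1)) of each tested gene in the 10-gene group and in 5 lists around it; colours mark genes that passed as lower or higher, black bars the list medians and the dashed line the median of all genes tested. The 10-gene group has its median at -3.43, the spindle partners at -1.56 and augmin with the gamma-tubulin ring at -0.15.

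Some factors that control mitotic genes were lower as well. Of 21 tested, 9 (42.9%) were lower and 2 higher, with a median of -0.35. Over all tested genes 8.21% were lower and 11.6% higher, so the share of higher factors was not above that of all genes. Foxm1, an activator of G2 and M genes, fell from 37.8 and 41.3 to 3.91 and 4.20 TPM (log2 difference -3.00, adjusted p = 0.000262), and Mybl2, the MYB subunit of the activating MuvB complex, from 16.4 and 15.1 to 1.60 and 1.31 TPM (-2.78). The repressors E2f8 and E2f7 fell by 2.74 and 1.92 on the log2 scale. The NF-Y genes did not pass in limma's test: Nfya (log2 difference -0.24, adjusted p = 0.235), Nfyb (0.42, 0.0910) and Nfyc (-0.24, 0.319). Lin54, whose product binds the CHR, was not found under its symbol. Rb1 rose from 24.9 and 21.8 to 46.6 and 56.7 TPM (1.11, adjusted p = 0.00464) and Rbl2, the pocket protein p130 of DREAM, from 16.1 and 17.2 to 22.5 and 25.8 TPM (0.51, adjusted p = 0.0319). Rb1 did not pass without CX-5461 replicate 3 (adjusted p = 0.0549), and Rbl2 did not pass with any library left out (0.0778 to 0.225). The count of lower factors was 5 without DMSO replicate 3, 5 without CX-5461 replicate 2 and 4 without CX-5461 replicate 3.

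Other features of the libraries stand beside these falls, and only some of them moved with the group. For the counts of marker genes below, 8.21% of all tested genes were lower and 11.6% higher. Each library held 35.0M to 37.3M recovered reads. The mitochondrially encoded share was 9.96% and 15.3% of TPM in DMSO replicates 2 and 3, and 9.20% and 9.24% in CX-5461 replicates 2 and 3. Both CX-5461 libraries thus lay below both DMSO libraries in this share, and its part in the falls was not tested. Of 10 p53 target genes 10 were higher, and their summed level was 2559 to 2588 TPM with DMSO and 5079 to 5592 TPM with CX-5461. Fibroblast markers were abundant, at a summed level of 12204 to 14448 TPM with DMSO and 11100 to 11405 TPM with CX-5461, and of 12 tested 6 were lower and 1 higher. Of 7 tested macrophage and blood markers 2 were higher, and the list summed to 603 to 613 TPM with DMSO and 875 to 975 TPM with CX-5461. The 2 were Lyz2, which held most of that sum (528 and 508 against 775 and 855 TPM), and Adgre1 (4.48 and 4.99 against 10.4 and 8.98 TPM, adjusted p = 0.0137). Cd68 stood at 26.7 to 52.6 TPM and Ptprc at 0.656 to 1.27 TPM over the 4 libraries. Keratinocyte markers summed to 84.3 to 92.2 and 104 to 111 TPM, and Sfn was the 1 of 6 tested that was higher with limma (51.1 and 53.3 against 74.8 and 69.3 TPM). At an unadjusted p under 0.05, 1 of these markers was lower and 4 higher, and with voom 1 was lower and 3 higher. Krt14 stood at 26.4 and 26.9 against 10.8 and 18.5 TPM and Ivl at 1.27 and 4.41 against 7.86 and 8.36 TPM, neither of which passed (adjusted p = 0.0641 and 0.0799), and Trp63 at 0.093 to 0.206 TPM. Endothelial markers summed to 50.6 to 51.1 and 57.2 to 58.3 TPM, nearly all of it from the 2 tested, Kdr, which was higher (6.16 and 6.42 against 23.8 and 24.1 TPM, adjusted p = 0.000729), and Tek, which was lower (44.3 and 43.7 against 33.9 and 32.6 TPM, adjusted p = 0.0299), with Cldn5 at 0 in 3 libraries. Without CX-5461 replicate 2 or replicate 3, Lyz2 (adjusted p = 0.0712 and 0.121), Adgre1 (0.107 and 0.0821), Sfn (0.169 and 0.133) and Tek (0.160 and 0.222) did not pass, nor did Tek without DMSO replicate 2 (0.0563) or replicate 3 (0.0663). These markers were named after their values were seen. Neural markers summed to 361 to 380 and 324 to 351 TPM, led by Tubb3 at 187 to 219 TPM, with Sox10 at 30.2 to 39.7 TPM and Rbfox3 at 0 in 3 libraries. Of 5 tested, 0 passed with limma (1 lower and 0 higher at an unadjusted p under 0.05, 2 lower and 0 higher with voom). Pluripotency markers summed to 0.937 to 2.07 and 0.525 to 0.554 TPM with Dppa3 and Dppa5a at 0 in every library. The part of these cell types in the falls was not tested.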

How the data were processed

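Polyadenylated RNA from 4 libraries of 4F2A fibroblasts was sequenced as paired reads of 150 bases, per the labels' protocols. The authors deposited TPM values (read numbers divided by gene length and scaled to the same total in each library). Per the labels, the authors cleaned reads with BMKCloud; the submitters' processing notes name build mm10. Not given in the sources used here were the aligner, the counter, the gene lengths and any use of strand. Groups and replicate numbers came from sample titles, and 0 columns were left unused.

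Genes averaging 1 TPM or more entered limma 3.58.1 (R 4.3.3) as log2(TPM + 1) values (trend and robust, 2 residual degrees of freedom), with Benjamini-Hochberg adjustment over all 14621 genes and a threshold of 0.05. On simulated libraries the share of false calls exceeded that threshold. An exact permutation test of single values cannot go below p = 0.333 here. Read numbers were recovered as TPM times exon length (GENCODE M21) over the value of 1 read. Of the 40 values of the 10 genes, 31 came out whole within 0.01, against 69.7% of all values under 10000 reads. The value of 1 read was set by taking the most frequent low value as 2 reads. The read numbers depend on that choice and need not be independent molecules. Genes were named by rule: the 10 genes, up to 6 per list with the smallest adjusted p, listed partners, list members that passed against their list's direction, and the 5 nearest profiles, from which the text gives examples. The 10 genes, the lists and the tests were chosen with earlier results of these data known. The table held 21 of the 22 listed transcription factors, all but Lin54. The NF-Y genes were named outside the naming rule, because their products bind a motif searched for here. Alternatives covered pseudocounts, filters, scalings, moderation, a replicate block, each library left out and voom on recovered reads. Python 3.11.15 and matplotlib 3.10.9 were used for motifs and plots.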

Additional observations from a re-analysis of the deposited data

How the results depend on the processing

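Of the 10 genes, all but Ckap2 and Ckap5 passed as lower under each of the 14 alternatives, and the count of genes passing as lower was 8 to 10 with 1 library left out. Their median log2 difference was -4.10 with a pseudocount of 0.1 TPM, -2.18 with 5 TPM, -3.55 with rescaling without mitochondrial and the 20 highest genes and -4.29 with voom on recovered reads, and ran from -3.44 to -3.32 with 1 library left out. Over all genes, 1201 lower calls became 2180 with voom and 337 to 891 with 1 library left out. The excess of higher over lower calls was not seen with the 3 other scalings, which gave 1678 lower and 1637 higher (median-of-ratios), 1650 and 1634 (quantile) and 1683 and 1616 (rescaling without mitochondrial and the 20 highest genes). The 1694 higher calls became 1051 with no filter, 1128 without trend and robust options and 218 to 2067 with 1 library left out. Of augmin and the gamma-tubulin ring, 2 genes were lower with no filter, 3 without trend and robust options and 0 to 4 with 1 library left out. Of the transcription factors, 14 were lower with voom and 4 to 8 with 1 library left out, and 1 was higher with no filter, 1 without trend and robust options and 0 to 1 with 1 library left out. Spindle partners passed as higher in 1 to 4 cases with 1 library left out. Where 1 library was left out, the spread of the remaining one was taken from the other group, and the cause of these changes was not tested.

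The groups share replicate numbers 2 and 3, but the labels do not say that a number marks a shared culture, and deviations of replicate 2 from the group means correlated at r = 0.03 between groups across 14621 genes. With the replicate number as a block, 10 of the 10 genes were lower, and 1100 genes were lower and 1589 higher over all. Mapre1 (adjusted p = 0.0682), Haus5 (0.0553) and Tek (0.0533) did not pass with the block. In the CX-5461 libraries Aspm, Nusap1, Espl1, Dlgap5 and Ckap2l rested on 21 to 61 reads each, which limits how finely their folds can be told apart.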
